A study of Acropora tenuis with 242 samples.

Results

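Juveniles bred between the CU and DR populations of the reef-building coral Acropora tenuis were compared with juveniles bred within each of those populations. The hybrids comprised every CUxDR and DRxCU juvenile library kept at Ambient temperature, which came to 25 of the 146 juvenile libraries of the series. They were 13 CUxDR libraries (3 in C1, 4 in D1, 3 in SED and 3 in SS) and 12 DRxCU libraries (3 in each treatment). They were set against 12 CUxCU and 12 DRxDR libraries, again 3 in each treatment. C1, D1, SED and SS are symbiont uptake treatments whose codes the labels do not spell out, and all of these juveniles had been kept at Ambient. CU and DR are population codes of the Great Barrier Reef. The labels do not say which population of a cross gave the eggs, how many colonies were bred, or whether replicate libraries stem from different cultures. The p-values therefore reflect variation among libraries, part of which may be technical.

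When populations that differ in the level of a transcript are crossed, the offspring can lie midway between them, close to either, or outside the range of both. These patterns are called additive, dominant and transgressive expression. Corals of this genus release eggs and sperm into the water, and their juveniles take up algal symbionts from the surroundings. Crosses between reef populations are bred to learn how traits such as heat tolerance pass to offspring.

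Transcripts were counted by tag-based RNA sequencing, which reads a short fragment of each transcript and counts it per gene model. Total counts ran from 160004 to 617578 in the hybrids, from 158481 to 390077 in CUxCU and from 169652 to 586229 in DRxDR, and levels are given as CPM, library-size-scaled counts. At this depth 1 count stood for several CPM, so low levels are imprecise. Of 25349 gene models in the juvenile table, 8988 passed the filter on low counts. The files do not pair identifiers such as Amillepora07326-RA with gene names, so at most a pair of models per direction is named in each comparison and no role is given. The identifiers begin with Amillepora, whereas the animals were Acropora tenuis, so the models appear to be those of another species. Whether the populations differed in how well their reads mapped to these models was not tested. The libraries were made from juvenile tissue, in which fewer cells of a type and less RNA per cell cannot be told apart.

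The library index in the column names separated the crosses. It ran from 100 to 145 in the hybrids, apart from a CUxDR D1 library in a late index block, from 42 to 53 in CUxCU and from 55 to 97 in DRxDR. These ranges do not overlap, so index order and cross cannot be told apart. That late-block library lay at -33.1 on the third and 32.5 on the fourth principal component, the most extreme of the CUxDR libraries on both. Counts without it are given beside the classes, and other results without it where a call ends.

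Averaged over the 4 treatments, hybrids differed from each parental-population cross in more gene models than those crosses differed from each other. Hybrids differed from CUxCU in 320 models (3.56% of those tested), of which 168 were higher and 152 lower in the hybrids. They differed from DRxDR in 514 models (5.72%), of which 48.4% were higher and 51.6% lower. CUxCU differed from DRxDR in 2.09% of models, with 91 higher and 97 lower in CUxCU. A model was called at an adjusted p of 0.05 by edgeR's quasi-likelihood test with Benjamini-Hochberg adjustment over all models tested. The hybrid mean rests on 25 libraries and each parental mean on 12, so the counts also differ in precision. Thinned to equal depth, the 3 counts came to 1.88%, 2.86% and 0.946% of 8988 models, though 6191 were then tested. With no filter on low counts they came to 7.61%, 10.5% and 5.33% of 8988, though 23764 were then tested. Shares of called models under other settings are given on the base of the main fit throughout. The juvenile labels carry no replicate numbers, so the libraries of a group were numbered in the order listed. Replicate 1 of CUxDR D1 was the late-block library. Without replicate 2 of each group, the removal that lowered the 3 counts most, they were 0.668%, 1.67% and 0.512%. Of the called models, 41.6%, 42.2% and 62.8% differed at least 2-fold in these 3 comparisons. The median size of a called log2 fold change was 0.884 in hybrids against CUxCU, 0.876 in hybrids against DRxDR and 1.26 in CUxCU against DRxDR.

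The third principal component, which held 5.55% of the variance, set the mean of the hybrids apart from those of both parental-population crosses. Single libraries overlapped, with DRxCU reaching up to 1.72 and CUxCU down to -2.39. CUxDR averaged -12.2 ± 9.83 and DRxCU -8.92 ± 8.77 on this component, against 9.14 ± 5.59 in CUxCU and 13.2 ± 6.0 in DRxDR (SD, n = 13, 12, 12 and 12). The fourth, with 4.51%, set CUxCU (-10.6 ± 8.23) apart from DRxDR (13.1 ± 6.40) and held the means of CUxDR (-0.915 ± 11.9) and DRxCU (-0.646 ± 8.39) between them. Single CUxDR libraries ran from -20.6 to 33.1 on it. Juvenile crosses that were not used to build the components were then placed on them. On the third component CUxSB lay at -11.3 ± 5.84, where the hybrids lay, while LSxCU (-2.04 ± 5.42) and DRxSB (0.508 ± 4.76) lay nearer to 0, as did SBxSB (-0.373 ± 5.54), LSxLS (3.04 ± 4.90) and BKxBK (3.43 ± 4.97). Those crosses carried index numbers of 148 to 158 in CUxSB, 103 to 147 in LSxCU and 101 to 146 in DRxSB, with 1 DRxSB library in the late block. The within-population crosses carried 54 to 96 in LSxLS, 57 to 99 in SBxSB and 56 to 98 in BKxBK.

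Gene models were then classed by where the hybrid mean lay. Hybrids lay above both parental-population crosses in 64 models (0.712% of those tested) and below both in 44 (0.49%). Thinned to equal depth there were 37 above both, 33 of them among the 64, and 12 below both, 10 of them among the 44. Leaving out replicate 1, 2 or 3 of each group left 27, 13 or 26 above both and 17, 6 or 14 below both. With no filter on low counts there were 137 above both and 108 below both among 23764 models tested. Without the late-block library there were 69 and 49. They were apart from DRxDR but not from CUxCU in 85 of the models that differed between those crosses (0.946% of all tested), and apart from CUxCU but not from DRxDR in 51 (0.567%). They lay between the parental-population crosses, and apart from each, in 3 models (0.0334%). A further 45 models differed between CUxCU and DRxDR with hybrids apart from neither, and in 476 hybrids differed from 1 parental-population cross while those crosses were not called apart. A model that was not called apart from a cross is not shown to match it.

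**Figure D1:**
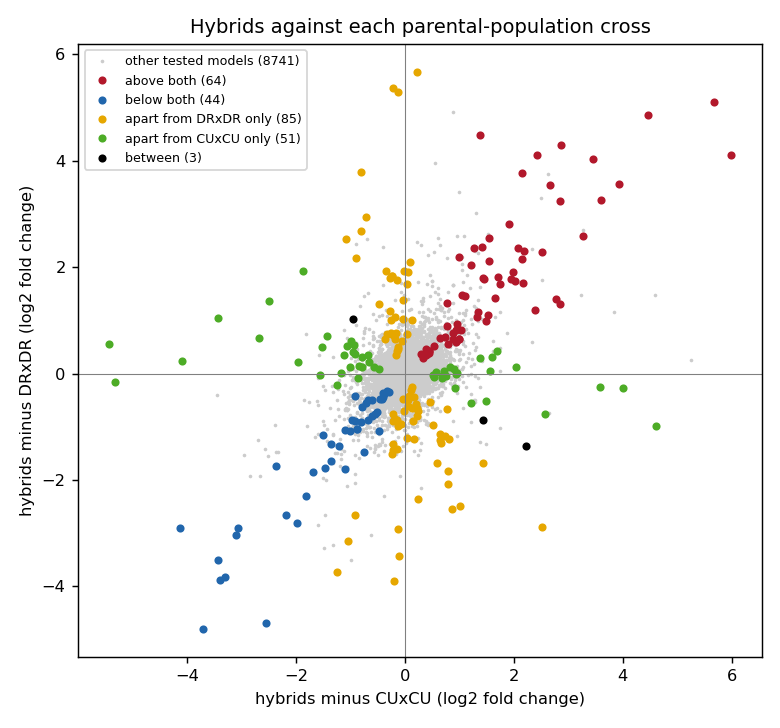
Each point is 1 of the 8988 gene models tested, with the log2 fold change of hybrids minus CUxCU on the x axis and of hybrids minus DRxDR on the y axis, averaged over the 4 symbiont treatments. The 64 models above both crosses fill the upper right, the 44 below both the lower left, and the 85 apart from DRxDR only and 51 apart from CUxCU only lie along the 2 axes.

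The plot of the fold changes also shows how far outside the models lay. In the 64 models above both, the smaller of the log2 fold changes against the parental-population crosses had a median of 1.28 and a range of 0.296 to 5.10, and it reached 2-fold in 41. In the 44 models below both, its size had a median of 0.894 and a range of 0.287 to 3.71, and it reached 2-fold in 21. All 64 and all 44 lay on the same side in CUxDR and in DRxCU taken apart, which is a description, since the pooled hybrid mean chose them. Their mean levels ran from 3.46 to 9.49 log2 CPM in the models above both and from 3.31 to 8.85 in those below both, with medians of 5.33 and 5.63, beside 5.66 over all models tested. The median CUxCU minus DRxDR difference was -0.0294 in the models above both and -0.0663 in those below both.

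Amillepora33772-RA and Amillepora07326-RA led the models above both that were moderately to highly abundant (at least 5 log2 CPM) and higher in hybrids in every treatment. Amillepora33772-RA ran from 13.3 to 222.1 CPM in the hybrids with a median of 64.98, against 0 to 93.0 in CUxCU (median 19.8) and 0 to 55.8 in DRxDR (median 22.4). The ranges overlapped, and 7 of the 25 hybrid libraries lay above all libraries of both crosses. Its log2 fold change was 1.74 ± 0.38 (SE) against CUxCU, with an adjusted p of 0.00455, and 1.69 ± 0.37 against DRxDR, with an adjusted p of 0.00313 by edgeR. Amillepora07326-RA ran from 53.2 to 666 CPM in the hybrids with a median of 168, against 4.32 to 188.9 in CUxCU (median 74.4) and 8.14 to 76.7 in DRxDR (median 43.0). In 11 hybrid libraries it was above every parental library. Against CUxCU the log2 fold change was 1.54 ± 0.29 (adjusted p = 0.00109), and against DRxDR it was 2.12 ± 0.30 (adjusted p = 6.52e-06). The difference from CUxCU was uneven over treatments, at 0.14 ± 0.49 in D1 and 3.47 ± 0.72 in SED, and only the SED value passed the test within its treatment (adjusted p = 0.026).

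Amillepora11126-RA and Amillepora06953-RA led the models below both by the same rule. Amillepora11126-RA ran from 3.51 to 79.8 CPM in the hybrids with a median of 37.4, against 38.4 to 131 in CUxCU (median 62.1) and 26.2 to 216.1 in DRxDR (median 84.6). Of the hybrid libraries, 14 lay below every CUxCU library and 10 below every DRxDR library. For Amillepora11126-RA the log2 fold change was -1.20 ± 0.26 against CUxCU (adjusted p = 0.00467) and -1.37 ± 0.26 against DRxDR (adjusted p = 0.000581). With the library index number as a covariate the value against CUxCU turned to 0.34 ± 0.60, and without the late-block library as well to 0.55 ± 1.79. Amillepora06953-RA ran from 2.77 to 77.4 CPM in the hybrids with a median of 36.0, against 35.8 to 107 in CUxCU (median 60.4) and 38.3 to 108 in DRxDR (median 63.5). It lay below every CUxCU library in 12 hybrid libraries and below every DRxDR library in 15. The log2 fold changes of Amillepora06953-RA were -0.91 ± 0.21 against CUxCU (adjusted p = 0.00697) and -0.90 ± 0.21 against DRxDR (adjusted p = 0.00475). The difference between CUxCU and DRxDR themselves was 0.01 ± 0.23. With the covariate and without the late-block library, Amillepora06953-RA turned to 1.64 ± 1.42 against CUxCU and 0.62 ± 0.88 against DRxDR.

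Within a single treatment, edgeR placed 1 model above and 1 below both crosses in D1, and these also lay outside both on average. It placed 0 outside both in C1, SED and SS, where DESeq2 placed 0.0223% of models in SED and 0.0111% in SS. With no filter on low counts edgeR placed 0.323% in C1, 0.356% in SED and 0.523% in SS. Those are shares of 8988 models, though 23764 were then tested. With the index number as a covariate 0.0779% lay outside both in SS, and the D1 calls were lost without replicate 1, 2 or 3 of each group. Amillepora09908-RA, named after its values were seen as the single model above both in D1, stood far higher in the hybrids than in CUxCU and DRxDR. In D1 it stood at 6.50, 6.29, 7.94 and 7.75 log2 CPM in CUxDR and 7.95, 7.90 and 6.37 in DRxCU, against 3.73, 3.29 and 3.27 in CUxCU and 3.87, 2.61 and 3.28 in DRxDR, where 2.61 stands for a count of 0. The lowest hybrid value in D1 was well above the highest parental one. Over all treatments 24 of the 25 hybrid libraries lay above every parental library, and the exception was a CUxDR SS library at 0. The counts behind these levels were 993 in the 25 hybrid libraries, 9 in CUxCU and 12 in DRxDR. The fitted log2 fold change of Amillepora09908-RA was 5.67 ± 0.63 against CUxCU (adjusted p = 1.41e-07) and 5.10 ± 0.57 against DRxDR (adjusted p = 7.79e-08). In D1 alone it was 5.00 ± 1.0 against CUxCU (adjusted p = 0.0349) and 5.14 ± 1.0 against DRxDR (adjusted p = 0.011). It was not restricted to hybrids in the wider series: it averaged 120.7 ± 71.2 CPM in CUxSB, 65.2 ± 83.4 in LSxCU and 70.2 ± 63.1 in DRxSB, and 47.0 ± 34.7 in LSxLS, 29.1 ± 21.2 in SBxSB and 53.05 ± 53.1 in BKxBK. CUxCU and DRxDR were thus the low crosses for this model.

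Amillepora28140-RA, likewise named after its values were seen, was the single model below both in D1. In D1 it stood at 0, 0, 0 and 2.43 CPM in CUxDR and 6.63, 6.21 and 3.82 in DRxCU, against 71.7, 11.1 and 10.7 in CUxCU and 39.8, 132 and 72.3 in DRxDR. Every hybrid library in D1 lay below every parental library. Over all treatments all 25 hybrid libraries lay below every DRxDR library and 24 lay below every CUxCU library. There were 28 counts in the hybrids, 109 in CUxCU and 180 in DRxDR. The log2 fold change of Amillepora28140-RA was -3.30 ± 0.39 against CUxCU (adjusted p = 2.68e-07) and -3.83 ± 0.37 against DRxDR (adjusted p = 1.37e-09), and in D1 alone -3.71 ± 0.79 (adjusted p = 0.0349) and -5.08 ± 0.70 (adjusted p = 5.2e-05). Other crosses spanned its whole range, with 36.4 ± 54.8 CPM in LSxLS, 10.8 ± 16.6 in SBxSB and 0.466 ± 1.09 in BKxBK.

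**Figure D2:**
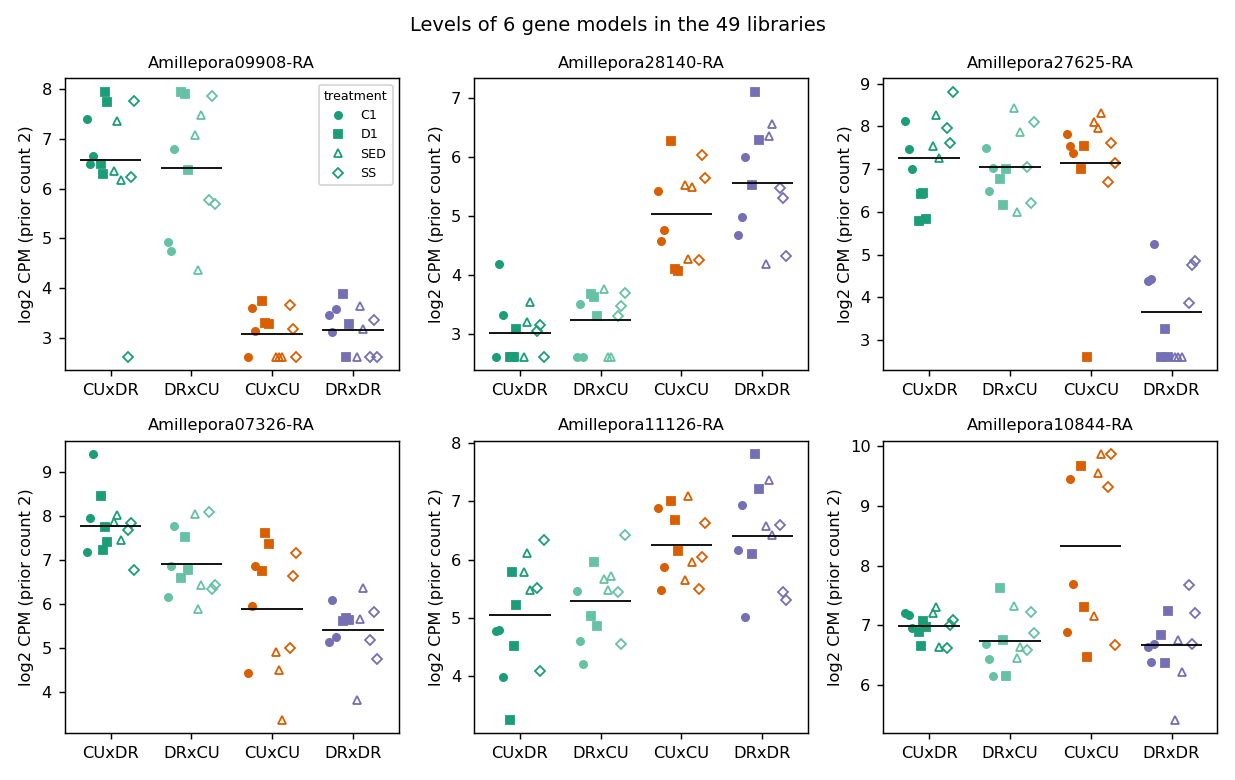
Level in log2 CPM (prior count 2) of 6 gene models in each library of CUxDR, DRxCU, CUxCU and DRxDR, with the symbol giving the symbiont treatment and the line the mean of the cross. Amillepora09908-RA is high in 24 of 25 hybrid libraries and Amillepora28140-RA low in all of them, whereas Amillepora07326-RA and Amillepora11126-RA overlap with the parental-population crosses, and Amillepora27625-RA and Amillepora10844-RA lie with CUxCU and with DRxDR.

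Because the classes were chosen on the same libraries, their placement was repeated in a treatment whose means had no part in the choice. The filter, normalization and estimates of spread still came from the fit to all of these libraries. Models were classed in 3 treatments and the group means were read in the fourth. Of the models chosen as above both, the hybrid mean lay above both parental means in 34 of 34 in C1, 28 of 29 in D1, 26 of 27 in SED and 29 of 31 in SS. Among all models tested, 30.3% to 31.6% lay above both in these treatments. Of the models chosen as below both, the hybrid mean lay below both parental means in 17 of 17 in C1, 16 of 16 in D1, 16 of 18 in SED and 19 of 21 in SS, beside 29.0% to 32.7% of all models. The median distance of the hybrids from the mid-parent, the mean of CUxCU and DRxDR, was 1.32 to 1.67 log2 units in the held-out treatments for models above both and -1.64 to -1.25 for models below both. The left-out treatment comes from other libraries but holds the same order of index numbers, so this placement does not separate cross from index order.

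**Figure D3:**
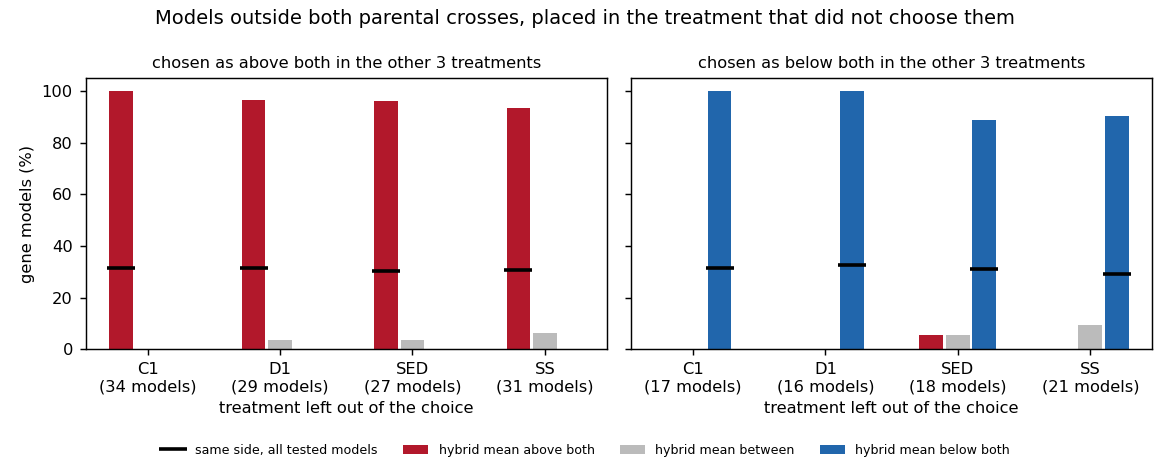
Percentage of gene models whose hybrid mean lay above both, between or below both parental means in the symbiont treatment on the x axis, for models classed in the other 3 treatments as above both (left) or below both (right). In the held-out treatments all but 4 of the placements chosen as above and all but 4 of those chosen as below fell on the chosen side, and black marks show the share of all tested models on that side, 29.0% to 32.7%.

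The level of the same models was then read in the other Ambient juvenile crosses. LSxCU and DRxSB have index numbers in the range of the hybrids, and LSxLS, SBxSB and BKxBK in the range of DRxDR, so a difference between these sets shares no library with the comparisons above. LSxCU and DRxSB are also crosses between populations with a CU or DR parent, whereas LSxLS, SBxSB and BKxBK are crosses within populations with neither. Index range, kind of cross and parentage thus cannot be told apart in this contrast. In that contrast 209 of 9886 models were called (2.11%), 140 higher (1.42%) and 69 lower (0.698%) in LSxCU and DRxSB. With the index number as a covariate 0.111% were called, and without replicate 2 of each group 0.223%. Of the 64 models above both, 59 could be tested there, and 11 of them (18.6%) were called higher and 0 lower in LSxCU and DRxSB. They make up 7.86% of the models called higher there. Their median log2 fold change was 0.385, beside 0.00786 over all models. Of the 44 models below both, 43 could be tested, and 2 (4.65%) were called lower and 0 higher. Their median log2 fold change was -0.0589. No test was made of whether these shares differ from the background.

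The mean over the 64 models above both was 6.16 ± 0.16 log2 CPM in CUxDR and 6.13 ± 0.11 in DRxCU, against 4.92 ± 0.20 in CUxCU and 4.90 ± 0.16 in DRxDR, values that follow from the choice of models. CUxSB, which was not used in the choice, stood at 6.13 ± 0.15, level with the hybrids. LSxCU stood at 5.65 ± 0.24 and DRxSB at 5.50 ± 0.17, and LSxLS, SBxSB and BKxBK at 5.26 ± 0.14, 5.29 ± 0.12 and 5.33 ± 0.12. For the 44 models below both, the hybrids stood at 5.03 ± 0.13 (CUxDR) and 5.07 ± 0.12 (DRxCU), against 5.94 ± 0.16 in CUxCU and 6.08 ± 0.16 in DRxDR. CUxSB stood at 5.15 ± 0.19, and the 5 other crosses between 5.33 ± 0.15 (DRxSB) and 5.55 ± 0.14 (LSxLS). For both lists the other within-population crosses thus lay between the hybrids and the pair CUxCU and DRxDR.

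**Figure D4:**
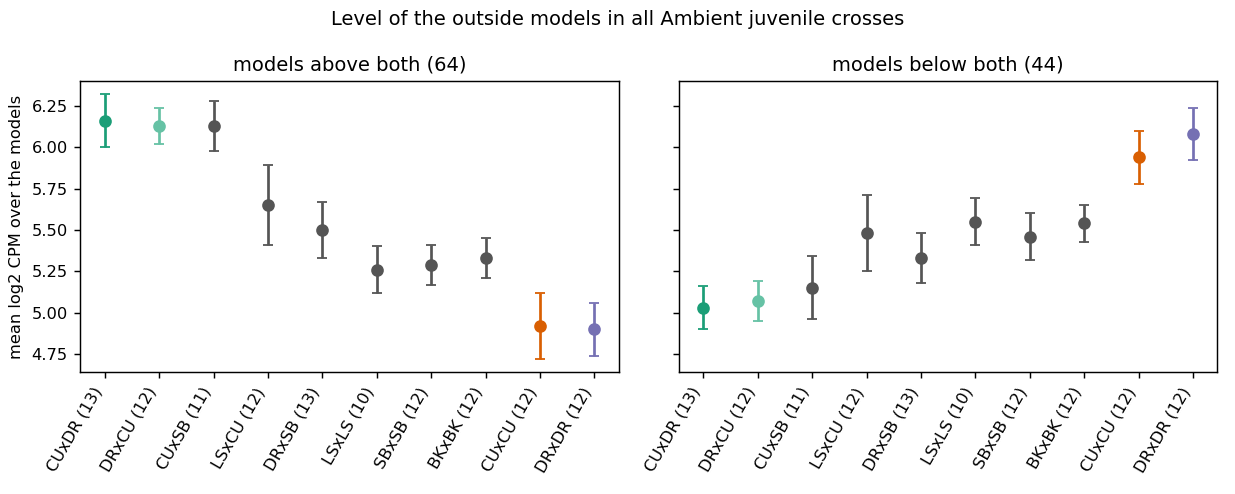
Mean log2 CPM over the 64 models above both (left) and the 44 models below both (right) in each Ambient juvenile cross, with the number of libraries in brackets and bars of 1 SD over libraries. CUxSB, at 6.13 and 5.15, lies with the hybrids in both panels, and LSxLS, SBxSB and BKxBK lie between the hybrids and the CUxCU and DRxDR crosses.

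These classes depend on how index order enters the fit. With the index number as a covariate, hybrids lay above both in 79 models, of which 22 were among the 64, and below both in 43, of which 1 was among the 44. With the covariate and without the late-block library no model was called in either class or in either hybrid comparison. By edgeR 3.05% of models then had an unadjusted p under 0.05 in hybrids against CUxCU and 3.56% in hybrids against DRxDR. The median standard error of a log2 fold change was 1.30 and 0.801 in that fit, and 0.192 and 0.191 without the covariate, in hybrids against CUxCU and against DRxDR, so that fit could detect much less.

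Among models that differed between CUxCU and DRxDR, hybrids were apart from DRxDR alone in 85 and from CUxCU alone in 51, counts whose difference was not tested. With the index number as a covariate they were 29 and 26. CUxCU was the higher cross in 36 of the 85 and the lower in 49. Amillepora27625-RA was the leading model with CUxCU higher. It ran from 49.1 to 444 CPM in the hybrids with a median of 127.1, against 0 to 311 in CUxCU (median 180.9) and 0 to 32.0 in DRxDR (median 6.04). All 25 hybrid libraries lay above every DRxDR library, and 1 CUxCU library in D1 stood at 0. Its log2 fold change was 5.30 ± 0.47 in hybrids against DRxDR (adjusted p = 3.85e-10) and -0.12 ± 0.24 in hybrids against CUxCU (adjusted p = 0.873). Amillepora01310-RA averaged 56.4 ± 57.7 CPM in the hybrids, against 82.3 ± 51.4 in CUxCU and 14.4 ± 18.6 in DRxDR. It was uneven over treatments. The hybrids averaged 24.0 ± 26.5 CPM in SS, against 52.7 ± 52.9 in CUxCU and 27.2 ± 34.9 in DRxDR, and in SED all 3 DRxDR libraries stood at 0.

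With CUxCU lower, Amillepora29554-RA averaged 72.1 ± 120.2 CPM in the hybrids, against 35.6 ± 52.6 in CUxCU and 267.2 ± 198 in DRxDR. The hybrid libraries were uneven, with a median of 8.30 CPM and a highest value of 435. Against DRxDR the log2 fold change was -2.54 ± 0.54 (adjusted p = 0.002). Amillepora27442-RA averaged 28.1 ± 15.6 CPM in the hybrids, against 15.8 ± 10.3 in CUxCU and 106 ± 71.4 in DRxDR. The log2 fold change of Amillepora27442-RA was -1.84 ± 0.31 against DRxDR (adjusted p = 0.000143) and 0.79 ± 0.42 against CUxCU (adjusted p = 0.362).

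Of the 51 models in which hybrids were apart from CUxCU alone, CUxCU was higher in 28 and lower in 23. Amillepora10844-RA averaged 114 ± 30.5 CPM in the hybrids, against 458 ± 354 in CUxCU and 103 ± 42.0 in DRxDR. The CUxCU libraries fell into high and low values in every treatment, such as 111, 692 and 200 CPM in C1 and 631, 926 and 95.7 in SS, and 4 hybrid libraries lay below all of them. Its log2 fold change against CUxCU was -1.96 ± 0.25 (adjusted p = 1.33e-06) and against DRxDR 0.21 ± 0.29 (adjusted p = 0.772). Amillepora26390-RA averaged 78.1 ± 40.6 CPM in the hybrids, against 230.3 ± 142 in CUxCU and 57.6 ± 27.2 in DRxDR. Its log2 fold change against CUxCU was -1.52 ± 0.28 (adjusted p = 0.000738 by edgeR). With the index number as a covariate that value turned to 0.21.

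In the other direction, Amillepora03978-RA averaged 151.1 ± 70.1 CPM in the hybrids, against 53.1 ± 38.0 in CUxCU and 220 ± 112 in DRxDR. Its log2 fold change was 1.49 ± 0.24 against CUxCU (adjusted p = 0.000131) and -0.52 ± 0.20 against DRxDR (adjusted p = 0.134). Amillepora01318-RA averaged 93.0 ± 73.4 CPM in the hybrids, against 22.2 ± 24.2 in CUxCU and 78.9 ± 49.3 in DRxDR, and 13 hybrid libraries lay above every CUxCU library.

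The 3 models between both crosses were Amillepora36309-RA, Amillepora00658-RA and Amillepora14158-RA. Amillepora36309-RA averaged 606 ± 318 CPM in the hybrids, against 1194 ± 438 in CUxCU and 347 ± 216.2 in DRxDR, with log2 fold changes of -0.95 ± 0.22 against CUxCU (adjusted p = 0.00779) and 1.02 ± 0.25 against DRxDR (adjusted p = 0.00776). The value against CUxCU turned to 0.35 with the index number as a covariate. Amillepora00658-RA averaged 81.7 ± 52.2 CPM in the hybrids, against 28.5 ± 13.7 in CUxCU and 144 ± 57.4 in DRxDR. Its log2 fold changes were 1.43 ± 0.31 against CUxCU (adjusted p = 0.00358) and -0.87 ± 0.24 against DRxDR (adjusted p = 0.021). Amillepora14158-RA, which was under 5 log2 CPM and is named because the class holds only 3, averaged 15.0 ± 13.3 CPM in the hybrids, against 2.82 ± 3.83 in CUxCU and 38.8 ± 20.2 in DRxDR. To be called between, a model needs a hybrid mean apart from both crosses, so a small count in this class does not show that few models lie midway.

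The position of each hybrid library between CUxCU and DRxDR was therefore measured over many models at once. The scale was set to 1 at CUxCU and -1 at DRxDR, and in each treatment it used models called between those crosses in the other 3 treatments, of which there were 111 in C1, 101 in SED and 89 in SS, and more in D1. The hybrids averaged 0.217 ± 0.106 (SD, n = 25), with a range of -0.00926 to 0.473, and 24 of the 25 libraries lay above 0. With only models of at least 5 mean log2 CPM (50 to 77 a treatment) they averaged 0.183 ± 0.217, with a range of -0.319 to 0.522, and 19 of the 25 lay above 0. The parental libraries, each placed with its own values left out, averaged 1.01 ± 0.221 in CUxCU and -1.01 ± 0.293 in DRxDR (n = 12 each). No hybrid library reached the range of either cross. By treatment the hybrids averaged 0.204 ± 0.0864 in C1, 0.230 ± 0.108 in D1, 0.255 ± 0.113 in SED and 0.176 ± 0.124 in SS.

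**Figure D5:**
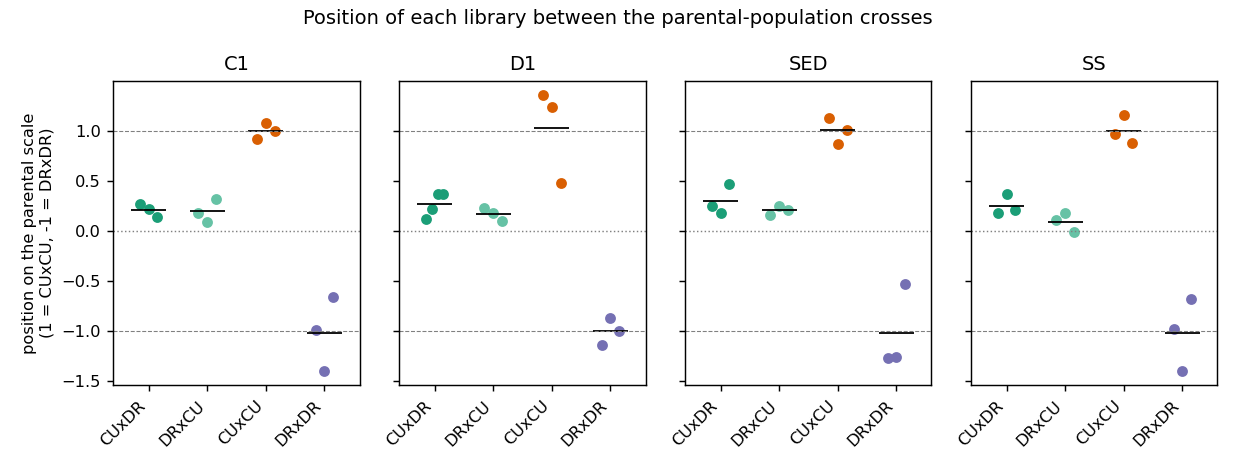
Position of each library on a scale where 1 is the mean of CUxCU and -1 that of DRxDR, in the 4 symbiont treatments, with a line at the mean of each cross. The hybrid libraries lie between -0.00926 and 0.473, apart from CUxCU and DRxDR in every treatment.

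The average hides an uneven pattern over the direction of the difference. In models higher in CUxCU (45 to 63 a treatment) the hybrids stood at 0.0925 ± 0.203, and in models higher in DRxDR (44 to 60) at 0.371 ± 0.272. Averaged over models, those grouped by class in the other 3 treatments kept their side in the held-out treatment. The hybrids stood at 0.807 ± 0.224 in models apart from DRxDR only (42 to 54 a treatment) and at -0.696 ± 0.274 in models apart from CUxCU only (24 to 32). Single models were more mixed. In models apart from DRxDR only, 116 of 197 placements put the hybrid mean between the parental means, 28 above both and 53 below both. In models apart from CUxCU only, these numbers were 65 of 109, 16 and 28. The models behind the mid position thus included a set that lay on the CUxCU side and a set that lay on the DRxDR side. In C1 these sets held 51 and 27 of the 111 models, and no separate position was computed for the rest.

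A place near the middle of this scale was not limited to the hybrids. With all Ambient juvenile crosses normalized together, CUxDR stood at 0.263 ± 0.106 and DRxCU at 0.171 ± 0.0861. Crosses with only 1 of the CU and DR parents stood at 0.187 ± 0.115 (CUxSB), 0.131 ± 0.157 (LSxCU) and 0.0161 ± 0.188 (DRxSB), and crosses with neither at 0.0505 ± 0.190 (LSxLS), 0.102 ± 0.219 (SBxSB) and 0.0923 ± 0.130 (BKxBK). Models and signs were also taken from 18 larval libraries of CUxCU and DRxDR, labelled Pre, Ambient or Hot, with that label in the fit. Of 9750 models 2004 were called there (20.6%), and 1678 of these were among the models tested in juveniles. With those 1678, CUxCU and DRxDR juveniles lay only 0.0629 to 0.0738 log2 units either side of their midpoint. On that narrow scale the hybrids fell at 2.91 ± 0.967 and BKxBK at 1.19 ± 0.359, so it does not place the hybrids between the crosses.

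Few models were called between the reciprocal crosses, which does not show that the crosses match. CUxDR and DRxCU differed in 13 models (0.145% of those tested), 7 higher and 6 lower in CUxDR, and in 0 within any single treatment. Averaged over treatments, 655 models (7.29%) had an unadjusted p under 0.05 by edgeR. Within treatments 388 to 514 models (4.32% to 5.72%) had an unadjusted p under 0.05, about the share that chance gives. Leaving out 1 library at a time gave counts between 5 and 20. No model higher in CUxDR met the rule for naming. Amillepora36517-RA averaged 11.5 ± 12.7 CPM in CUxDR and 99.9 ± 89.6 in DRxCU, beside 21.3 ± 17.0 in CUxCU and 105 ± 78.1 in DRxDR. Between CUxDR and DRxCU the log2 fold change was -2.91 ± 0.60 (adjusted p = 0.0214). Within DRxCU its libraries spread between 3.10 and 245.7 CPM. Amillepora26812-RA averaged 89.9 ± 51.6 CPM in CUxDR and 228 ± 124 in DRxCU, beside 101 ± 32.8 in CUxCU and 110 ± 44.5 in DRxDR. The log2 fold change of Amillepora26812-RA was -1.39 ± 0.26 (adjusted p = 0.0124).

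The direction of the reciprocal difference was also set against that of the parental difference, which shares no library with it. Of the 13 models, 4 had the sign of CUxCU minus DRxDR. Of the models called between CUxCU and DRxDR, 117 (62.2%) had the same sign in CUxDR minus DRxCU, beside 49.9% of all models tested. On the parental scale CUxDR stood at 0.261 ± 0.106 and DRxCU at 0.169 ± 0.0865, a difference of 0.0915 (two-sided permutation test of cross labels within treatments, p = 0.0325, 100000 resamples). CUxDR was the higher in each treatment, at 0.210 against 0.197 in C1, 0.273 against 0.174 in D1, 0.302 against 0.209 in SED and 0.256 against 0.0951 in SS. The difference no longer passed 0.05 without the late-block library (0.0933, permutation p = 0.052), with DESeq2 size factors (0.0823, permutation p = 0.0536) or with a prior count of 0.5 (0.0732, permutation p = 0.108), and it turned to -0.204 without the filter on low counts (permutation p = 0.255).

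Within single treatments, which hold 6 or 7 hybrid libraries and 3 of each parental-population cross, fewer models were called. Hybrids differed from CUxCU in 0 models in C1 (0%), 9 in D1 (0.1%), 16 in SED (0.178%) and 6 in SS (0.0668%). They differed from DRxDR in 5 models in C1 (0.0556%), 22 in D1 (0.245%), 11 in SED (0.122%) and 14 in SS (0.156%). For hybrids against CUxCU in C1, 471 models (5.24%) had an unadjusted p under 0.05 by edgeR, about the share that chance gives, and DESeq2 called 1. CUxCU differed from DRxDR in 0 models in C1 (0%), 2 in D1 (0.0223%), 4 in SED (0.0445%) and 1 in SS (0.0111%). In C1 that comparison also had 471 models (5.24%) with an unadjusted p under 0.05, again about the share that chance gives. With no filter on low counts, the calls a treatment came to 1.01% to 1.8% for hybrids against CUxCU and 1.94% to 3.12% against DRxDR. Those are shares of 8988 models, though 23764 were then tested.

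Whether the distance of the hybrids from the mid-parent changed with the symbiont treatment was tested directly. No model was called (0 of 8988, 0%), 3.06% had an unadjusted p under 0.05 by edgeR, and DESeq2 called 1. With no filter on low counts the called models came to 1.46% of 8988, though 23764 were then tested. Amillepora24657-RA had the lowest p (0.000793, adjusted p = 1). In C1 it averaged 59.5 ± 17.2 CPM in the hybrids, against 26.8 ± 7.83 in CUxCU and 30.6 ± 1.39 in DRxDR. In SED it averaged 32.8 ± 19.3 CPM in the hybrids, against 37.7 ± 16.0 in CUxCU and 60.5 ± 16.0 in DRxDR. Amillepora05763-RA had the next lowest p (0.00162, adjusted p = 1), with 137 ± 51.0 CPM in hybrids in SS, against 89.1 ± 34.4 in CUxCU and 113 ± 15.9 in DRxDR, and 114 ± 20.9 in hybrids in SED, against 164 ± 29.2 in CUxCU and 225 ± 19.0 in DRxDR. Neither passed the adjustment.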

How the data were processed

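The authors deposited raw read counts per gene model for each life stage. The kit (RNAqueous) and the tag-seq protocol are given per the labels' protocols, and Bowtie2 2.2.9 per the submitters' processing notes. The counting step, any removal of duplicate reads and the reference are not given in these sources, nor is whether near-identical gene copies shared reads, so a value of 1 model can hold reads of its copies. Columns were matched to samples by the title in their names, and crosses and treatments came from the labels. The series held 242 libraries. The late-block CUxDR library had index 284, in a block that starts at 273.

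Counts of the Ambient CUxDR, DRxCU, CUxCU and DRxDR juveniles were fitted with edgeR 4.0.16 in R 4.3.3 (TMM, filterByExpr, glmQLFit and glmQLFTest), with 1 coefficient for each of 16 combinations of cross and treatment. Hybrids are the equal-weight mean of CUxDR and DRxCU. The call threshold was a Benjamini-Hochberg adjusted p of 0.05. CPM uses TMM library sizes, log2 CPM a prior count of 2. Positions needed at least 20 models. All 51 replicate pairs differed beyond sampling noise, with chi-square per degree of freedom between 2.25 and 10.1. Named models had at least 5 mean log2 CPM and the same direction of the ranking contrast in all 4 treatments, 2 per direction by fold change (CUxCU minus DRxDR was the ranking contrast for models between or apart from 1 cross), or the lowest p for treatment dependence; exceptions are stated. The lists of named functions and cell types that had been planned need gene names and were not used. The members, lists and tests were chosen with earlier results of these data known. The tests were tried on simulated data. Alternatives were DESeq2 1.42.0, its size factors, no filter, left-out libraries, the index number as a covariate, thinning to 158481 counts and other settings of the position.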

Additional observations from a re-analysis of the deposited data

Results flagged for a closer look

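Each value was compared with the others of its group, in 88 groups of 4 to 10 libraries, and 3 (3.41%) held a library far from the rest, where chance gives about 5%. The position of the hybrids in SED had a CUxDR library at 0.473, while the other hybrid libraries there lay at 0.160 to 0.253. Amillepora29554-RA stood at 87.3 CPM in a DRxCU SED library, against 0 to 6.30 CPM in the other hybrid libraries of SED, and the DRxDR libraries of SED held 69, 2 and 98 counts of it. Amillepora24657-RA stood at 15.0 CPM (5 counts) in a CUxDR SS library, against 36.0 to 52.04 in the other hybrid libraries of SS. No explanation of these values was tested.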

How the results depend on the processing

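Counts of called models are given as percentages of those tested in the main fit with the filter on low counts, the unit used above. Among the hybrids and their parental-population crosses, 23764 models were tested with no filter and 6191 after thinning. The percentages for those settings are not shares of these numbers. No paired analysis was possible because the labels of the juveniles carry no replicate numbers. Index order and cross cannot be told apart, and with all libraries the slope of the covariate leans mostly on the late-block library. The index number as a covariate without the late-block library and the removal of single libraries were chosen after seeing the data.

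Leaving out 1 replicate number at a time, which drops 1 library from every combination of cross and treatment that holds it, or 1 library alone, moved hybrids minus CUxCU over 0.668% to 3.94%, hybrids minus DRxDR over 1.67% to 6.43% and CUxCU minus DRxDR over 0.512% to 2.3%. Hybrids above both ranged over 0.145% to 0.801%, below both 0.0668% to 0.567%, between 0% to 0.0334%, apart from DRxDR only 0.234% to 0.946% and apart from CUxCU only 0.1% to 0.556%. CUxDR minus DRxCU ranged over 0.0111% to 0.223%, and the contrast of LSxCU and DRxSB with LSxLS, SBxSB and BKxBK over 0.223% to 2.15%. Within treatments, hybrids minus CUxCU ranged over 0% to 0.0779% in D1, 0% to 0.167% in SED and 0% to 0.0668% in SS, and hybrids minus DRxDR over 0% to 0.1% in C1, 0% to 0.49% in D1, 0.0111% to 0.122% in SED and 0.0223% to 1% in SS. Models outside both in D1 ranged over 0% to 0.0223%. The position of the hybrids stayed at 0.187 to 0.246, and CUxDR minus DRxCU on that scale at 0.085 to 0.331. No position was computed without replicate 2, since a treatment then held 8 models, fewer than 20, nor with the covariate and without the late-block library. Of single libraries, those that moved a count over all treatments by more than 1.5 times did so for CUxDR minus DRxCU alone, among the 6 counts rerun. It came to 0.0668% without CUxDR D1 replicate 1, CUxDR SS replicate 1 or CUxDR SS replicate 2, to 0.0779% without CUxDR C1 replicate 2 or DRxCU D1 replicate 3, to 0.089% without CUxDR D1 replicate 4, DRxCU C1 replicate 1 or DRxCU C1 replicate 2, to 0.0556% without DRxCU SS replicate 2 and to 0.223% without CUxDR D1 replicate 2.

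DESeq2 moved 8 counts, to 0.0111% for hybrids minus CUxCU in C1, 0.278%, 0.189% and 0.256% for hybrids minus DRxDR in C1, SED and SS, 0.0223% and 0.0111% outside both in SED and SS, 0.0556% between and 0.0111% for treatment dependence. With no filter the values were 7.61% for hybrids minus CUxCU, 10.5% for hybrids minus DRxDR, 5.33% for CUxCU minus DRxDR, 1.52% above both, 1.2% below both, 0.167% between, 2.37% apart from DRxDR only, 1.35% apart from CUxCU only, 1.72% for CUxDR minus DRxCU, 1.46% for treatment dependence and 5.58% for the other crosses. In C1, D1, SED and SS it gave 1.01%, 1.51%, 1.8% and 1.36% for hybrids minus CUxCU, 1.97%, 3.12%, 1.94% and 3.12% for hybrids minus DRxDR, and 0.323%, 0.567%, 0.356% and 0.523% outside both. Thinned to equal depth, hybrids minus CUxCU fell to 1.88%, hybrids minus DRxDR to 2.86%, CUxCU minus DRxDR to 0.946%, above both to 0.412%, below both to 0.134%, between to 0.0111%, apart from DRxDR only to 0.501%, apart from CUxCU only to 0.278%, CUxDR minus DRxCU to 0.0556% and the other crosses to 0.941%. Thinning also gave 0.0334%, 0.0779% and 0.0223% for hybrids minus CUxCU in D1, SED and SS, 0%, 0.122%, 0.0445% and 0.0223% for hybrids minus DRxDR in C1, D1, SED and SS, and 0.0111% outside both in D1.

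Without the late-block library, hybrids minus DRxDR in C1 came to 0.1% and CUxDR minus DRxCU to 0.0668%. With the index number as a covariate, 0% were between, 0.323% apart from DRxDR only and 0.289% apart from CUxCU only, CUxDR minus DRxCU came to 0.0668% and the other crosses to 0.111%. In C1, D1, SED and SS this fit gave 0.0223%, 0.278%, 0.567% and 0.167% for hybrids minus CUxCU and 0%, 0.523%, 0.0445% and 0.545% for hybrids minus DRxDR, with 0.134% outside both in D1 and 0.0779% in SS. With the covariate and without the late-block library, CUxCU minus DRxDR came to 0.0223%, CUxDR minus DRxCU to 0.0445%, and every other count in this section to 0%.

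The position of CUxDR minus that of DRxCU was 0.0823 with DESeq2 size factors (permutation p = 0.0536), 0.0933 without the late-block library (p = 0.052) and 0.0732 with a prior count of 0.5 (p = 0.108), and it reversed to -0.204 with no filter (p = 0.255). The position of the hybrids moved to 2.91 for models chosen in larvae. The named models reversed in 6 of 306 values. With the covariate, the log2 fold change of hybrids minus CUxCU was 0.213 in Amillepora26390-RA, 0.335 in Amillepora11126-RA and 0.349 in Amillepora36309-RA. With the covariate and without the late-block library it was 0.546 in Amillepora11126-RA and 1.64 in Amillepora06953-RA, and hybrids minus DRxDR was 0.624 in Amillepora06953-RA. A further 69 values kept their direction without passing the test. The cause of these changes was not tested.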
